A study of Mus musculus with 6 samples.

Results

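Of the 23282 genes in the count table, 10 belong to the dual-specificity phosphatases that switch off MAP kinases, the Gadd45 stress genes, or the MAP3 kinase TPL2, and they were chosen by gene symbol. They are Dusp1, Dusp4, Dusp5, Dusp6, Dusp10 and Dusp16, Gadd45a, Gadd45b and Gadd45g, and Map3k8, which encodes TPL2. They were measured in primary hepatocytes isolated by collagenase perfusion from C57BL/6N mouse livers, with no genetic change in either group. After 3 h of attachment in culture plates, 3 samples received recombinant IL-1β protein for 24 h (IL-1β group), and 3 samples labelled as untreated served as the control group. The dose is not given in the labels. The libraries were made by QuantSeq, in which an oligo-dT primer restricts the reads to the 3′ end of each mRNA. The labels number the replicates but do not say whether they came from separate animals, so p-values measure the spread between these samples, which may be technical.

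MAP kinases (ERK, JNK and p38) are active when a threonine and a tyrosine in their activation loop are both phosphorylated, and the MAP kinase phosphatases of the DUSP family remove both phosphates. Many DUSP and Gadd45 genes are themselves transcribed in response to MAP kinase, NF-κB or stress signals, so that they act as feedback on the pathways that IL-1β engages through its receptor. GADD45 proteins bind and activate the MAP3 kinase MEKK4 and also bind PCNA and cell cycle kinases, and TPL2 links the NF-κB1 precursor p105 to the ERK cascade. In the liver, these genes are known from acute responses to cytokines, fasting, partial hepatectomy and stress. The treated samples were taken at 24 h only, so earlier changes were not measured.

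After 24 h of IL-1β, Dusp6 rose by 45.3%, Gadd45g rose by 39.5% and Dusp16 decreased by 17.8%. The other 6 members that could be tested did not pass the threshold, an adjusted p below 0.05 from edgeR's quasi-likelihood test, and Dusp5 had no counts. Thus 2 of 9 tested members were called higher and 1 was called lower. Over all 11657 genes tested, 6.97% were called higher, 6.44% lower and 13.4% in either direction. The 3 and 3 values did not overlap in 4 of the 9 members, Dusp6, Dusp16, Gadd45a and Gadd45g, while the share over all genes tested was 28.2%. With 9 members, a difference of 1 gene moves these shares widely, and the counts are given as a description. In an exact permutation test of 3 samples against 3, the smallest two-sided p is 0.1, which was the value of each of these 4 members.

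The upstream sequences of the 3 called members are shown so that the genes that rose can be set beside the gene that fell, and that of Dusp1 because it held the most kinds of motif match. Each is the 250 bases before the RefSeq start of the gene on build GRCm38, written 5′ to 3′ along the gene's own strand, with motif matches in capitals. Windows were found for 8 members, and Dusp4 and Map3k8 had none. Dusp6 lies at chr10:99262981-99263230 (+), Gadd45g at chr13:51846425-51846674 (+), Dusp16 at chr6:134792629-134792878 (-) and Dusp1 at chr17:26508473-26508722 (-).
Dusp6: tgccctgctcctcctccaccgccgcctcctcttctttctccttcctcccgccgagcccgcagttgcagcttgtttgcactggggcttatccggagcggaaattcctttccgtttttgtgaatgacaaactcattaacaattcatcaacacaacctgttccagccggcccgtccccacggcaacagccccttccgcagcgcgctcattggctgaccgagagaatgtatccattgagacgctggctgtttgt
Gadd45g: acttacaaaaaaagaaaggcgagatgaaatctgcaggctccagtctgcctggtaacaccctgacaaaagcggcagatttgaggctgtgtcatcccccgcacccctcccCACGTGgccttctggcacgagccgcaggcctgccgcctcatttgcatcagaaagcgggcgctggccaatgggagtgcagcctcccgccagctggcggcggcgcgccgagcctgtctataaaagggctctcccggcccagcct
Dusp16: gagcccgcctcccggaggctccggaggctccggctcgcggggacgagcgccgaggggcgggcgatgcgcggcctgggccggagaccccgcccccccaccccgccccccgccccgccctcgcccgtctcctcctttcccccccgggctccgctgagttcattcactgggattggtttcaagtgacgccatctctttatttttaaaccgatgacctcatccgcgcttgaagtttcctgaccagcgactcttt
Dusp1: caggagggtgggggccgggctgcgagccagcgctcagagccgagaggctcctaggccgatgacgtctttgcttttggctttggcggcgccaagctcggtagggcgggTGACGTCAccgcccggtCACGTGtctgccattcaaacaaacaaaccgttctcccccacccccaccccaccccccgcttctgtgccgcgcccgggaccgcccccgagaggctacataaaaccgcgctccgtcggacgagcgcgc
These windows, and those of Dusp5, Dusp10, Gadd45a and Gadd45b, were searched on both strands for 6 motifs known from inducible genes. The motifs were the NF-κB site, the AP-1 site (TGANTCA), the cAMP response element (CRE, TGACGTCA), the CArG box of serum response factor, the E-box CACGTG and the ETS site (CCGGAAG). In the Gadd45g window, the capitals mark an E-box at -142 to -137, counted back from the start. Gadd45b also had an E-box, at -185 to -180. In the Dusp1 window, the capitals mark a CRE at -143 to -136 and an E-box at -126 to -121. The Dusp5 window held a pair of adjacent CArG boxes, at -82 to -73 and -72 to -63. The windows of Dusp6, Dusp10, Dusp16 and Gadd45a held no match to these 6 motifs, and the NF-κB, AP-1 and ETS motifs had no match in any of the 8 windows. Of 32851 windows of the same length, 6.02% held the E-box, 1.55% the CRE, 1.47% a CArG box, 3.9% the NF-κB motif, 6.75% the AP-1 motif and 6.91% the ETS motif. A match gives the letters only, and binding was not measured.

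The libraries held 9538741 to 11105408 counts each, so that 3 counts in a library, taken as the limit of detection, corresponded to 0.269 to 0.321 CPM (each count divided by its library size after TMM scaling). This limit covers counting error only. The hepatocyte identity was checked with 15 marker genes, of which Alb, Fgb and Gc were the most abundant. Others in the list were low. Ass1 had 3 to 13 counts in a library and was not tested, and Cps1, Tat and Hpd had control means of 2.65, 3.22 and 7.64 CPM. The summed level of the 15 markers ran from 35090 to 35870 CPM in the controls and from 29040 to 30870 CPM after IL-1β, and 10 of 14 tested markers were called lower and none higher. Of 12 tested Kupffer cell and macrophage markers, only Cd14, an LPS co-receptor, was called, rising by 1.64 on the log2 scale (adjusted p = 1.6e-12 from edgeR). The other 14 markers of that list summed to 248.1 to 279.9 CPM in the controls and 254.2 to 287.4 CPM after IL-1β. Most of that sum came from Cd68, with means of 192.4 CPM in the controls and 184.1 CPM after IL-1β. The Kupffer cell marker Timd4 was at 0 or 1 count in every library. The 10 endothelial markers summed to 85.8 to 97.4 and 81.8 to 89.2 CPM, with 1 called higher and 3 lower, and the 10 stellate cell and fibroblast markers to 40.6 to 44.3 and 43.4 to 47.5 CPM, with none called. For the cholangiocyte markers, the summed level of 316.9 to 329.5 CPM in the controls against 236.3 to 239.8 CPM after IL-1β came mainly from Spp1 and Sox9, of which Spp1 fell by 1.20 on the log2 scale (adjusted p = 4.36e-12 from edgeR). The neutrophil and lymphocyte markers S100a9, Mpo, Cd3e, Cd3g, Cd79a and Ms4a1 were at 0 in every library, and S100a8 was called higher in IL-1β libraries over controls at 0. Whether the gene models of these markers reach the 3′ end was not checked, so a 0 does not show that such cells were absent. The part of these other cells, and of the lower hepatocyte markers, in the changes of the members was not tested. In such bulk samples, a lower number of cells of a type and less RNA per cell cannot be told apart.

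Dusp6 encodes MKP-3, a cytoplasmic phosphatase specific for ERK, and its gene lies at chr10:99263231-99267489 on the plus strand. Its expression was 89.9, 103 and 98.2 CPM in the control libraries and 137.5, 139.8 and 145 CPM in the IL-1β libraries. All 3 IL-1β values stood above all 3 controls, with a gap far wider than the spread within either group. The means were 97.0 ± 6.52 CPM (SD, n = 3) and 141 ± 4.07 CPM (SD, n = 3), and the log2 fold change was 0.54 ± 0.076 (SE, edgeR adjusted p = 1.02e-05). The 95% confidence interval of the fold ran from 1.30 to 1.62. The coefficient of variation between IL-1β libraries, 2.89%, was close to the 2.64% that counting error alone gives at these counts, whereas in controls it was 6.72% against 3.12%. Dusp6 was the only member called under every scaling, filter, test and left-out library tried at the same threshold.

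Dusp16 encodes MKP-7, a phosphatase for JNK and p38, and spans chr6:134715468-134792628 on the minus strand. Its expression was 139, 132 and 132 CPM in control hepatocytes and 101.5, 114 and 115.5 CPM after IL-1β. Each IL-1β library lay below each control, and IL-1β replicate 1 was the lowest. The means were 134 ± 4.28 CPM (SD, n = 3) and 110.3 ± 7.69 CPM (SD, n = 3), so that Dusp16 fell by 0.28 on the log2 scale with an SE of 0.076 (edgeR adjusted p = 0.012). The fold interval was 0.737 to 0.916. Without IL-1β replicate 1 the log2 fold change was -0.22 and the adjusted p was 0.119, so the call rests on that library. Its adjusted p was 0.118 when log2 values were tested without moderation (the unmoderated test).

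Dusp10 encodes MKP-5, which also acts on JNK and p38, and lies at chr1:184034461-184075636 on the plus strand. The control libraries gave 40.5, 27.3 and 38.3 CPM and the IL-1β libraries 24.8, 25.3 and 30.4 CPM. The groups overlapped, because control replicate 2 lay below IL-1β replicate 3. The log2 fold change was -0.39 ± 0.137 (SE, edgeR adjusted p = 0.0576), with a 95% interval of -0.68 to -0.11 that leaves out 0, and the call was missed after adjustment. Without control replicate 2, the log2 fold change was -0.55 and the adjusted p was 0.00577. With all samples, Dusp10 also passed with upper-quartile scaling (adjusted p = 0.0392 from edgeR), total-count scaling (0.0229) or no filter on low counts (0.0168). The variation between controls, 20%, was well above the 5.19% of counting error.

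Dusp1 encodes MKP-1, a nuclear phosphatase for p38, JNK and ERK and a classical immediate-early gene, and lies at chr17:26505591-26508472 on the minus strand. Its expression was 36.5, 36.1 and 47.9 CPM in the controls and 32.9, 37.7 and 28.6 CPM after IL-1β. IL-1β replicate 2 stood above 2 of the controls, so the groups overlapped. The log2 fold change was -0.28 (standard error 0.126, adjusted p = 0.174 from edgeR, 95% interval -0.54 to -0.02). The variation between Dusp1 controls was 16.7%, against 4.87% from counting error. The estimate was -0.14 without control replicate 3, the highest control, and -0.18 without IL-1β replicate 3, the lowest library.

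Dusp4 encodes MKP-2, a nuclear phosphatase for ERK and JNK, and lies at chr8:34807610-34819894 on the plus strand. It was low, with 9.58, 11.3 and 5.74 CPM in the controls and 9.19, 7.30 and 9.95 CPM after IL-1β. The IL-1β values lay inside the control range. The log2 fold change of -0.01 had a 95% interval of -0.49 to 0.47 (adjusted p = 0.984 from edgeR). At this depth and spread, a change of either sign within that interval was not excluded, and the sign of the estimate turned under several alternatives.

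Dusp5 encodes a nuclear phosphatase specific for ERK, and the table lists it with 0 counts in all 6 libraries. Its gene model in the table, chr19:53529318-53541322 on the plus strand, has 1155 nt of exons, which is exactly the coding length, and stops 1109 nt short of the annotated 3′ end of the transcript. The models of the other 9 members end within 6 nt of the annotated 3′ end. Because QuantSeq reads start at the 3′ end, reads from Dusp5 mRNA would lie outside the model on which they were counted. In the whole table, 1058 genes had a model as long as their coding sequence although a 3′ UTR is annotated, and 94.9% of them were at 0 in every library, against 22.1% of 18099 other genes. These sets of genes were not matched for how strongly they are expressed in hepatocytes. Because its model leaves out the 3′ end, the 0 for Dusp5 is no measure of its expression, and no limit is given for it.

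**Figure D1:**
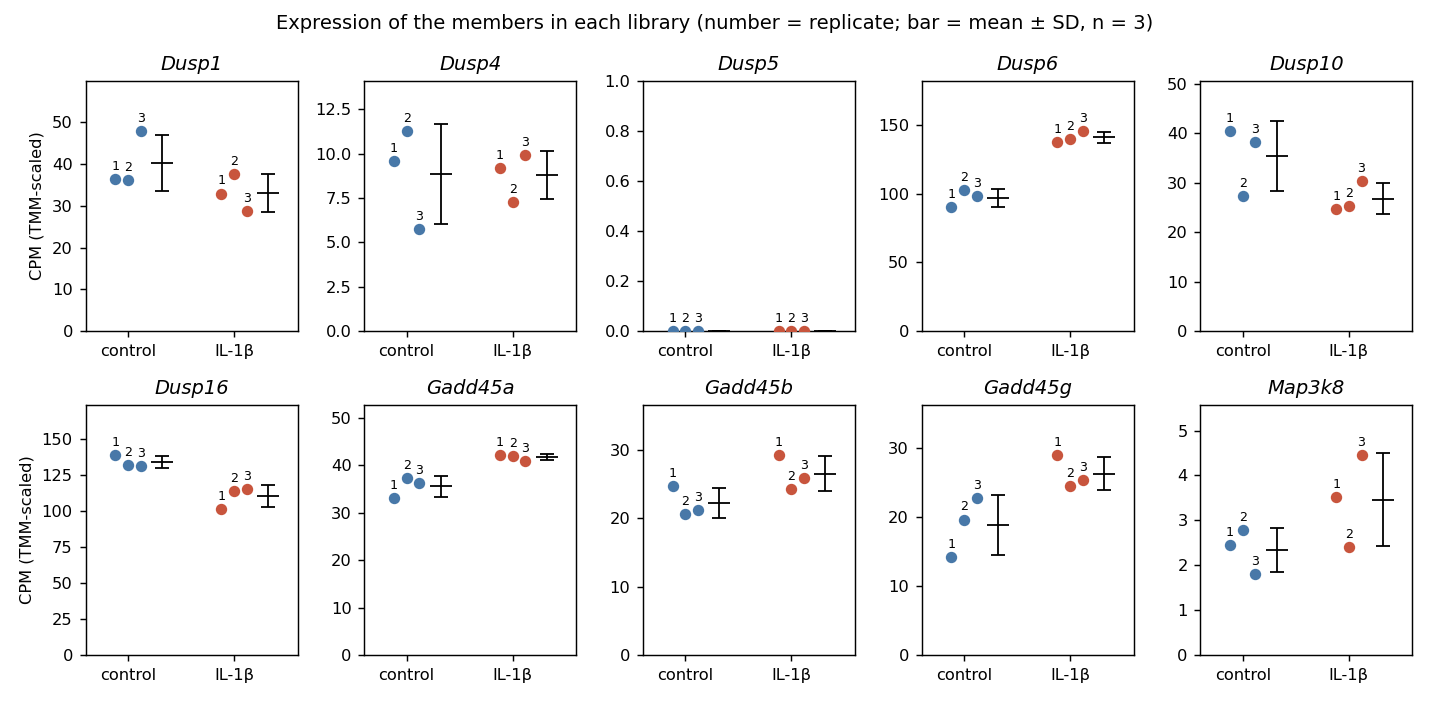
Expression of the 10 members in each library, in TMM-scaled CPM on a linear axis from 0, with a panel for each gene. Points are libraries with their replicate number, and the bars beside them give the mean ± SD (n = 3). Dusp6, Gadd45g and Gadd45a (not called) were higher and Dusp16 lower in all 3 IL-1β libraries, whereas Dusp5 was at 0 counts.

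The summed level of the member phosphatases was not tested, and its values were similar in both groups while the make-up differed. Summed over the 6 genes, expression was 315.7, 309.4 and 321.8 CPM in the controls and 305.9, 323.8 and 329.9 CPM after IL-1β, and the groups overlapped. Dusp6 made up 28.5%, 33.2% and 30.5% of that sum in the controls and 45.0%, 43.2% and 44.1% after IL-1β. The share of Dusp16 was 42.6 ± 1.6% (SD, n = 3) in the controls and 34.4 ± 1.11% (SD, n = 3) after IL-1β, and that of Dusp10 was 11.2 ± 2.09% and 8.38 ± 0.743%. The corresponding shares were 12.7 ± 1.89% and 10.4 ± 1.52% for Dusp1 and 2.82 ± 0.949% and 2.76 ± 0.437% for Dusp4. Unlike the summed CPM, these shares do not depend on how libraries were scaled, but Dusp5 could not enter them or the sum. Because they are parts of a whole, a higher share of Dusp6 by itself lowers the others, so the lower shares are not separate changes. With about 1 read per transcript in this protocol, CPM was not divided by transcript length. In CPM, Dusp16 was the most abundant member in each control library, and Dusp6 was in each IL-1β library. The ratio of Dusp6 to Dusp16 was 0.646, 0.779 and 0.746 in the controls and 1.35, 1.23 and 1.26 after IL-1β. This pair was chosen after its values were seen, so the ratio is given without a test.

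**Figure D2:**
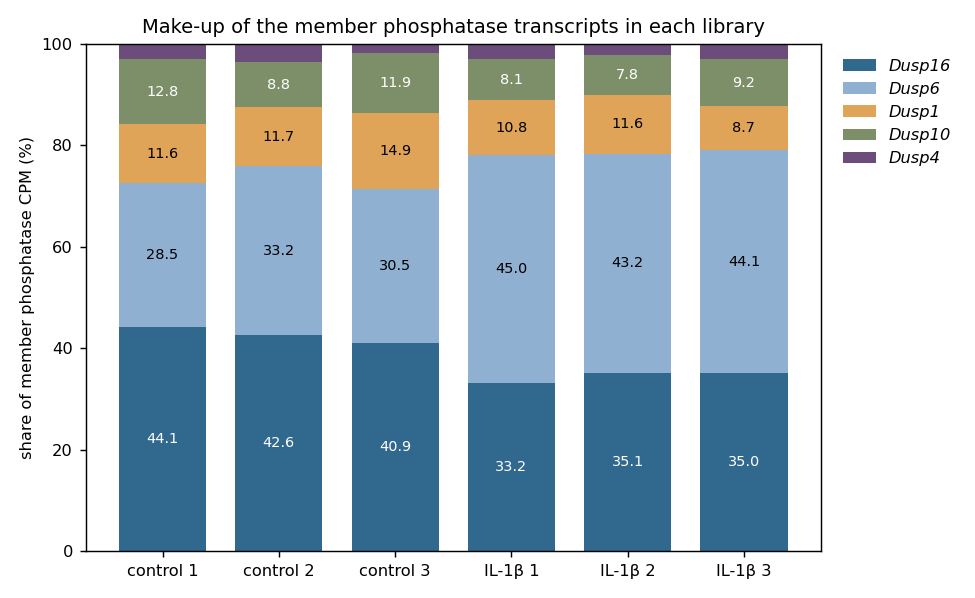
Share of each member phosphatase in the summed CPM of the member phosphatases, in percent, for each library, as stacked bars that start at 0 and end at 100. Dusp6 took 28.5% to 33.2% in the controls and 43.2% to 45.0% in the IL-1β libraries, and Dusp5, at 0 counts, is not drawn.

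Gadd45g lies at chr13:51846675-51848474 on the plus strand and encodes a cytokine-inducible GADD45 protein. Its expression was 14.2, 19.6 and 22.7 CPM in the controls and 29.0, 24.5 and 25.3 CPM after IL-1β. The groups did not overlap, although control replicate 3 was less than 1 SD of the IL-1β group below the lowest IL-1β value. The means were 18.8 ± 4.30 CPM (SD, n = 3) and 26.3 ± 2.39 CPM (SD, n = 3), and the log2 fold change was 0.48 ± 0.150 (SE, edgeR adjusted p = 0.0327), and the fold interval was 1.13 to 1.73. This call was not stable to the samples. Without control replicate 1, the lowest library, the log2 fold change was 0.31 (adjusted p = 0.162 from edgeR), and without IL-1β replicate 1, the highest, it was 0.41 (adjusted p = 0.16). The adjusted p was 0.0574 without control replicate 2, and it was 0.0557 and 0.0792 when IL-1β replicate 2 or 3 was left out, so that Gadd45g stayed called only without control replicate 3, at 0.63. With all samples, the call was also lost with total-count scaling (adjusted p = 0.0578 from edgeR) and with the unmoderated test (0.305).

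Gadd45a, a target gene of p53 and of the ATF4 stress pathway, lies at chr6:67035096-67037407 on the minus strand. It had 33.1, 37.3 and 36.3 CPM in the controls and 42.2, 41.9 and 41.0 CPM after IL-1β. All IL-1β values stood above the controls, and they lay closer together than counting error alone gives, at 1.52% against 4.86%. The log2 fold change was 0.23 (standard error 0.103, 95% interval 0.02 to 0.44), and it did not pass the adjustment (adjusted p = 0.167 from edgeR).

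Gadd45b, a gene induced by NF-κB and by TGF-β, lies at chr10:80930091-80932204 on the plus strand. Its expression was 24.7, 20.7 and 21.3 CPM in the controls and 29.3, 24.3 and 25.9 CPM after IL-1β. The groups overlapped by 1 library, since IL-1β replicate 2 was just below control replicate 1. The log2 fold change was 0.25 (standard error 0.128, 95% interval -0.01 to 0.52, adjusted p = 0.241 from edgeR). All 3 Gadd45 genes thus had estimates above 0 with intervals that overlap each other, and their sum was 72.0 to 80.2 CPM in the controls and 90.7 to 100.5 CPM after IL-1β. Within that sum, Gadd45a held 46.4 ± 1.49% (SD, n = 3) in the controls and 44.2 ± 2.09% (SD, n = 3) after IL-1β, and Gadd45g held 24.4 ± 4.34% and 27.8 ± 0.954%. The shares of all 3 genes overlapped between the groups.

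Map3k8 encodes TPL2, the MAP3 kinase that activates MEK downstream of IL-1 and Toll-like receptors, and spans chr18:4331327-4352953 on the minus strand. It was the lowest of the tested members, with 26, 31 and 18 counts in the control libraries and 33, 25 and 48 counts in the IL-1β libraries, or 2.44, 2.77, 1.81 and 3.53, 2.40, 4.46 CPM. The groups overlapped, and IL-1β replicate 2 lay below 2 of the controls. Its log2 fold change was 0.56, the standard error was 0.366 and the 95% interval ran from -0.20 to 1.31 (adjusted p = 0.398 from edgeR). It was 0.33 without IL-1β replicate 3, the highest library, and 0.77 without IL-1β replicate 2. The variation was 20.8% between controls and 29.8% between IL-1β libraries, where counting error alone gives 20% and 16.8%. The precursor p105, which holds TPL2 in a complex, is encoded by Nfkb1, with 34.1, 16.8 and 21.9 CPM in the controls and 40.1, 32.9 and 33.7 CPM after IL-1β. Control replicate 1 lay within the IL-1β range, and the log2 fold change was 0.55 (adjusted p = 0.0288 from edgeR), and with all samples it did not pass in DESeq2 (adjusted p = 0.314) or the unmoderated test (0.391). It was 0.88 and passed without control replicate 1, and with any other library left out it was 0.34 to 0.61 and did not pass, with adjusted p of 0.0562 to 0.204 from edgeR. Tnip2, which encodes the third protein of that complex, ABIN-2, had 15.3, 18.6 and 20.4 CPM in the controls and 22.6, 24.6 and 18.4 CPM in the IL-1β libraries, with overlap (log2 fold change 0.27, edgeR adjusted p = 0.291, and 0.16 without control replicate 1 or 0.18 without IL-1β replicate 2).

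**Figure D3:**
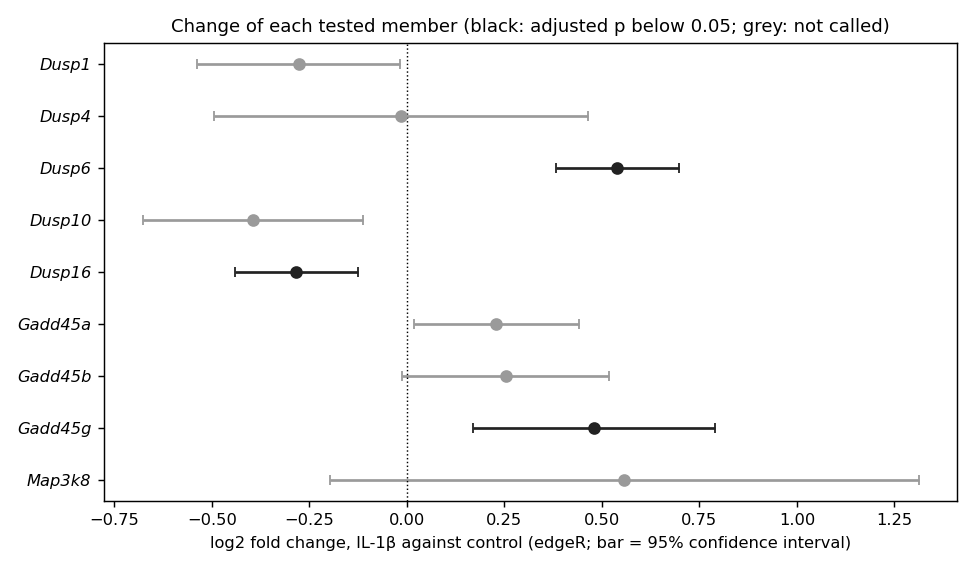
Log2 fold change of IL-1β against control for the 9 tested members, from edgeR, with 95% confidence intervals and a dotted line at 0. Dusp6 at 0.54, Gadd45g at 0.48 and Dusp16 at -0.28 (black) passed the adjusted threshold, and the interval of Map3k8, from -0.20 to 1.31, is the widest.

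Around the members, 8 lists of genes of the MAP kinase cascade held 75 tested genes, of which 3 were called higher and 6 lower, a share of 12.0% beside 13.4% over all genes tested. None of the 5 tested other MAP kinase phosphatases was called in either direction, at a median log2 fold change of -0.04. Of the 11 tested atypical DUSPs, which lack the MAP kinase binding domain, only Dusp14 was called. Dusp14, a phosphatase of the TAK1-TAB1 complex, had 7.23, 5.55 and 5.64 CPM in the controls and 2.99, 3.36 and 2.51 CPM after IL-1β, and it fell by 1.05 on the log2 scale (adjusted p = 0.0145 from edgeR). Its groups did not overlap, but the call was lost without control replicate 1 (0.0625) or IL-1β replicate 3 (0.0729). Among the MAP kinases, 11 were tested, and Mapk7, encoding ERK5, rose by 0.57 while Nlk fell by 0.34 on the log2 scale, with adjusted p of 0.0193 and 0.039 from edgeR. The call of Mapk7 was lost without control replicate 1 (0.053) or IL-1β replicate 2 (0.159), and that of Nlk without any library but control replicate 1, at adjusted p of 0.0526 to 0.201 from edgeR and log2 fold changes of -0.39 to -0.26. Nlk also did not pass in DESeq2 with all samples (adjusted p = 0.052). Of 6 tested MAP2 kinases, Map2k3, an activator of p38, fell by 0.32 (adjusted p = 0.00303 from edgeR). Of 22 tested MAP3 kinases and adaptors, Map3k5, encoding the stress kinase ASK1, fell by 0.35 (adjusted p = 0.00495). Of 9 MAPK-activated kinases, Mapkapk2, which encodes the p38 target MK2, rose by 0.32 (adjusted p = 0.0049), beside a list median of 0.25. Among 9 tested Sprouty, Spred and other inhibitors of the ERK pathway, Spred3 and Spred2 fell, from means of 2.99 and 3.28 CPM in the controls to 0.752 and 1.22 CPM after IL-1β (adjusted p = 0.00432 and 0.0313 from edgeR), and no member of the list was called higher. Both were near the limit of detection after IL-1β, and Spred2 lost its call without control replicate 1 or 3 or IL-1β replicate 1 or 2 (adjusted p = 0.0527 to 0.162). Without IL-1β replicate 2, 5 genes of these 8 lists were called instead of 9, and the unmoderated test with all samples called none, with adjusted p of 0.065 to 0.391 for these 9 genes.

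Among the partners of GADD45 proteins, none of 6 tested genes was called in either direction. Map3k4, encoding MEKK4, had 53.3 ± 5.77 CPM (SD, n = 3) in the controls and 49.6 ± 1.42 CPM (SD, n = 3) in the IL-1β group (log2 fold change -0.11, edgeR adjusted p = 0.586, and -0.05 without control replicate 1 or -0.19 without control replicate 3). Since Gadd45a is a target of p53 and of ATF4, both target lists were read beside it. Of 19 tested p53 target genes, 3 were called higher and none lower, at a list median of 0.05, where 6.97% of all genes tested were called higher. They were Fas, encoding a death receptor, at a log2 fold change of 1.10 (adjusted p = 6.46e-05), the kinase gene Plk2 at 0.75 (adjusted p = 1.44e-05), and Sesn2 at 0.94 (adjusted p = 0.0484, all from edgeR). Sesn2 is in both target lists and is counted in each. Its call was lost without any library but control replicate 1 (0.0553 to 0.205), and with upper-quartile (0.0562) or total-count scaling (0.0599, all from edgeR). The list of ATF4 and CHOP targets held 14 genes, all tested, and Atf4 itself was among them. In it, 10 genes were called higher and none lower, at a list median of 0.38, beside 6.97% called higher over all genes tested. Atf4 was 1 of the 10, at 0.33 (adjusted p = 0.000383 from edgeR). Ddit3, which encodes CHOP, was not called, at 0.07 (adjusted p = 0.65 from edgeR). Among the called genes of this list, the cystine transporter gene Slc7a11 rose by 0.75, the stress-induced transcription factor gene Atf3 by 0.79, the serine synthesis gene Psat1 by 0.64 and the asparagine synthetase gene Asns by 0.53 on the log2 scale (adjusted p = 1.78e-08, 1.38e-05, 1.52e-05 and 0.000227 from edgeR). Gadd45a, at 0.23, lay above the median of the p53 list and below that of the ATF4 list.

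**Figure D4:**
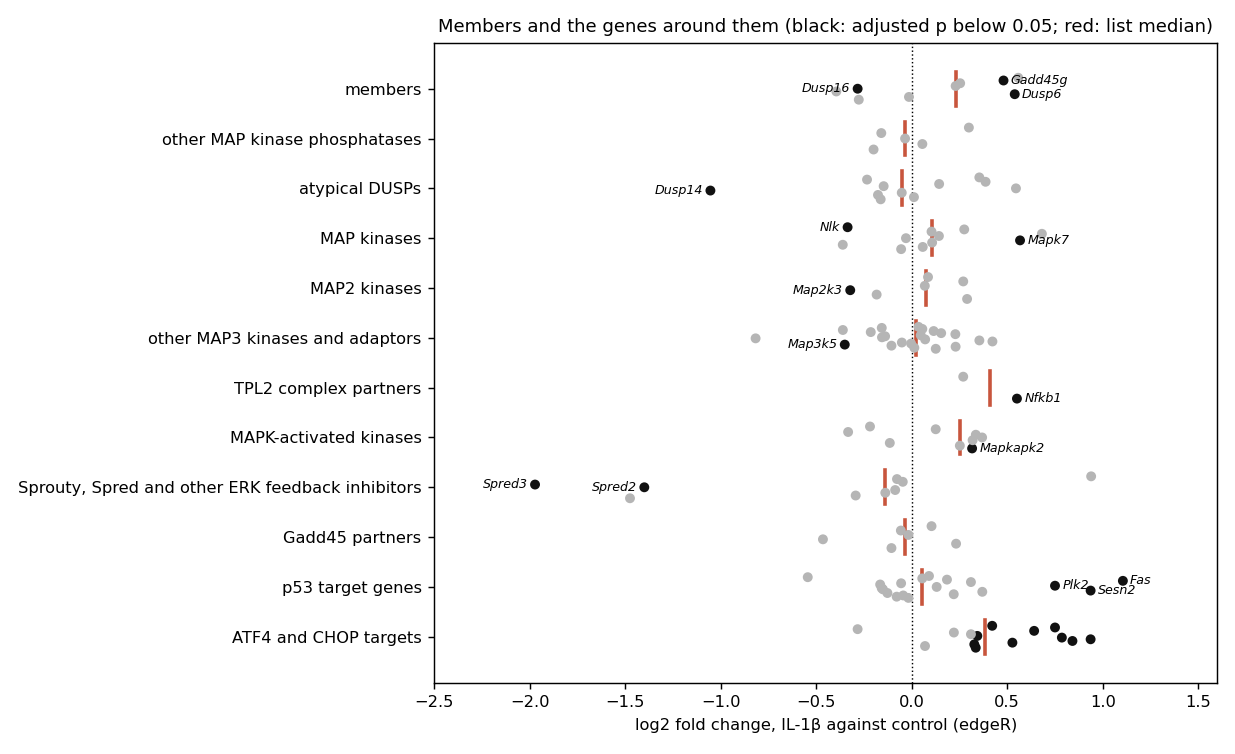
Log2 fold change of IL-1β against control (edgeR) for the 9 tested members and for 11 lists of related genes, with a point for each gene, called genes in black and the list median as a red bar. Of the 75 tested genes in the 8 MAP kinase cascade lists, 9 are black. In the list of ATF4 and CHOP targets, which includes Atf4 itself, 10 of the 14 genes are black and to the right of 0.

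The 3′ UTR of each member was read for AU-rich words, which are known from unstable mRNAs of early response genes. The word ATTTA was present in 8 of 10 members and the longer TATTTAT in 2 of 10, beside 62.6% and 26.1% of 19157 annotated genes with a 3′ UTR. Dusp1 had the highest density, with 4 ATTTA and 3 TATTTAT, or 5.8 and 4.35 words per kb, and Map3k8 followed with 4 ATTTA, or 4.09 per kb. Gadd45a had 2 ATTTA and 1 TATTTAT, and Gadd45b and Gadd45g had neither word. Dusp6, called higher, had 1 ATTTA (0.84 per kb) and Dusp16, called lower, had 3 (1.24 per kb), below the 1.93 per kb over all annotated genes. No annotated gene overlapped the last 500 nt of any member, and no 75-nt window there occurred in a transcript of another gene, so the reads of the members could be told from those of related genes.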

How the data were processed

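The 6 samples were grouped by their labels. The authors aligned single-end reads of 75 nt with Bowtie2 (the builds mm10 and GRCm38 are named in the submitters' processing notes) and deposited raw counts per gene, which were used here. The counting tool and the treatment of multi-mapping reads are not given in the sources used here. The deposited table also holds log2 normalized values, group averages, fold changes and p-values by the authors, which were not used. All 6 samples were used, although the series text counts 2 in each group while listing 3.

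The test was edgeR 4.0.16 under R 4.3.3 (filterByExpr, TMM, quasi-likelihood test, Benjamini-Hochberg adjustment over the 11657 genes kept), tested first on simulated data. The standard error is the log2 fold change divided by the square root of F. Permutation tests were exact and two-sided. No sample was dropped or imputed. Alternatives were upper-quartile and total-count scaling, omission of Rn45s, DESeq2 1.42.0, limma 3.58.1 with a pseudocount of 1 or 0.1, an unmoderated test on log2 values, other filters and thresholds, the replicate number as a block, and each sample left out. The same alternatives for the cascade lists were added after seeing the data. Of 212 list genes, 210 had a row.

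The members and lists were chosen with earlier results of these data known. Beside the members, the text names the called genes of each list, at most 4 by smallest adjusted p. It also names Atf4 and Ddit3, the complex partners Nfkb1, Tnip2 and Map3k4, and the 3 most abundant or undetected markers. Of these, some markers are given only in their summed level or are not reported here. Promoter windows are from RefSeq (GRCm38.p6), and gene models and 3′ UTRs were compared with GENCODE annotation of the same build.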

Additional observations from a re-analysis of the deposited data

How the results depend on the processing

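Dusp6 was called in every fit at an adjusted p below 0.05, with log2 fold changes of 0.48 to 0.59 and adjusted p up to 0.0305. The number of members called higher, 2, was 1 with total-count scaling, with the unmoderated test and at an adjusted p below 0.01, 0 when a fold over 1.5 was also required, and 1 to 2 with a sample left out. The number called lower, 1, was 2 with upper-quartile or total-count scaling, no filter or the replicate block, 0 with the unmoderated test, a fold over 1.5 or an adjusted p below 0.01, and 0 to 2 with a sample left out. The total of 3 was 4 with upper-quartile scaling, no filter or the replicate block, 1 with the unmoderated test, 0 with a fold over 1.5, 1 at an adjusted p below 0.01, and 1 to 3 with a sample left out. The gained gene was Dusp10 each time (adjusted p = 0.0392, 0.0229, 0.0168 and 0.0354 from edgeR in the 4 settings above), Gadd45g was lost with total-count scaling (0.0578), and the unmoderated test gave 0.305 for Gadd45g and 0.118 for Dusp16. Dusp4 turned sign with the replicate block (0.015), limma with a pseudocount of 1 (0.0267) or 0.1 (0.034) and the unmoderated test (0.0267), and ran from -0.25 to 0.20 with a sample left out. The 9 calls in the cascade lists were 12 with total-count scaling, 10 with upper-quartile scaling, 7 with DESeq2 or at least 10 counts in every sample, 0 with the unmoderated test, 3 with a fold over 1.5, 4 at an adjusted p below 0.01, and 5 to 8 with a sample left out. The filter of at least 10 counts removed Spred2 and Spred3 before testing. In DESeq2, Nfkb1 (adjusted p = 0.314) and Nlk (0.052) were tested and did not pass. Deviations of samples with the same number correlated by 0.08, 0.03 and 0, and those with different numbers by -0.11 to 0.1. With 3 libraries in each group, these values cannot show whether the numbers pair the samples. With the replicate block, 4 members were called, and 1671 of all genes against 1563. Total-count scaling moved the median of all genes to -0.06 and the share of called genes that were higher from 52.0% to 39.6%, and upper-quartile scaling to 45.3%. The causes of these shifts were not tested. Map3k8 and Dusp4 had the fewest counts of the tested members, 18 to 126, and Dusp4 controls varied by 32% against 10.3% from counting error.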
